A study of Mus musculus with 17 samples.

Results

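RNA was measured in mouse embryonic fibroblasts (MEFs) that lack the microRNA gene Mir203 (KO) while they were driven towards induced pluripotent stem cells (iPSCs), and the libraries of days 6 and 7 were set against that of day 4. Genes were taken when they reached 5 FPKM (fragments per kilobase of transcript and per mapped reads, a level per length) in at least 1 of the 3 libraries and lay on the same side of day 4 on both later days, on the log2(FPKM + 1) scale. Of 38734 genes in the table, 10871 reached the minimum and 9321 met the rule, 5870 of them higher and 3451 lower on days 6 and 7. With each library scaled to the same sum the split was 4597 to 4589, and after quantile normalization 4634 to 4603. The rule only orders the libraries and says nothing of size.

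The whole series holds 17 libraries, 1 for each genotype and stage: MEF, day 0, day 4, day 6 and day 7 in wild type (WT), KO and knock-in (KI) cells, and iPSCs from WT and KO. All 3 genotypes are labelled as carrying the OSKM cassette, which expresses Pou5f1 (Oct4), Sox2, Klf4 and Myc under doxycycline. The labels give 1 µg/ml for about 2 weeks for every library, those of MEF and day 0 included, so they do not state the exposure at each stage. The KO cells are labelled miR-203 KO; OSKM and the WT cells miR-203 WT; OSKM. The KI cells are labelled ColA1_miR203; Rosa26rtTA; OSKM, and there doxycycline also switches on miR-203. The KI libraries go against the cassette in their label: their 4 factors summed to 46.2, 32.9 and 31.5 FPKM on days 4, 6 and 7, below the 55.1 FPKM of KI MEFs, while KO reached 498, 1108 and 1229 FPKM. KI below means the libraries labelled KI. The labels do not say which embryos gave each culture, nor whether the stages of a genotype are 1 culture followed over time. These are whole cultures, so more cells of a type and more RNA per cell cannot be told apart.

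MEFs are mesenchymal cells. During reprogramming they must give up that state, and a mesenchymal-to-epithelial transition, with loss of matrix genes and gain of junction proteins and keratins, precedes the endogenous pluripotency network. In mouse skin miR-203 is known as a microRNA of differentiating epidermis that restrains the stem cell factor Trp63. The miR-290 to miR-295 cluster is abundant in mouse embryonic stem cells.

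The mature sequences of the microRNAs concerned are shown because the first is the one removed from these cells and the others belong to the cluster whose precursors appeared in this interval. They are RefSeq sequences on build GRCm38.p6, written 5′ to 3′ with the seed (bases 2 to 8) in capitals.
miR-203-3p, chromosome 12, plus strand: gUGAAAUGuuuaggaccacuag
miR-290a-3p, chromosome 7, plus strand: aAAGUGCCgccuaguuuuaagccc
miR-291b-3p, chromosome 7, plus strand: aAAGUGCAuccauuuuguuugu
miR-294-3p, chromosome 7, plus strand: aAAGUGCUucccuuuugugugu
miR-295-3p, chromosome 7, plus strand: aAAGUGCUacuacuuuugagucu
miR-293-3p, chromosome 7, plus strand: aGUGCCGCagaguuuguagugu
miR-294-3p and miR-295-3p share the seed AAGUGCU, and the other 3 members shown each have a seed of their own. Mir203 itself was listed at 0 FPKM in the KO libraries of days 4, 6 and 7. It was listed at 0 in every WT library as well, so in these polyadenylated libraries a 0 does not show that the microRNA is absent, whereas the KI library of day 4 had 7903 FPKM. Mir293 was listed at 0 on day 4 in KO, at 122 FPKM on day 6 and at 120 on day 7. Mir295 was at 0 on days 4 and 6 and at 1144 FPKM on day 7, beside 792 in KO iPSCs. Mir292 and Mir291b were first listed above 0 on day 7, at 285 and 104 FPKM. All 4 were at 0 in every WT and KI library before the iPSC stage. FPKM of genes this short is unstable, and these values are a description of genes chosen after their values were seen. Mir290 and Mir294 were listed at 0 in all 17 libraries.

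The sum of FPKM was 566903 on day 4, 627154 on day 6 and 635354 on day 7 in KO, and the number of genes at 5 FPKM or more went from 9674 to 9846 to 10091. Read depths are unknown. Ddx3y, a Y-linked gene, lay between 19.68 and 20.02 FPKM and Xist between 0 and 1.43 FPKM in the 3 KO libraries, while the WT day 4 library had Xist at 48.0 and Ddx3y at 2.74 FPKM. The WT libraries of days 6 and 7 had Xist at 0.581 and 3.23 FPKM and Ddx3y at 19.6 and 16.6 FPKM, so the WT day 4 library stands apart from them, and every difference between the KO and WT changes given below rests on it. Macrophage markers separated the genotypes: Lyz2 was at 8.39, 13.9 and 12.3 FPKM on days 4, 6 and 7 in KO and at 762, 2218 and 2649 FPKM in WT. The 18 macrophage markers in the table summed to 44.9, 87.4 and 127 FPKM in KO to 1499, 3680 and 4430 FPKM in WT and to 2050.0, 2342 and 2272 FPKM in KI, and their part in the differences of KO from WT and from KI was not tested.

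Differences were tested with limma on log2(FPKM + 1) for 13837 genes, with days 6 and 7 joined as the late stage, and genes with a Benjamini-Hochberg adjusted p under 0.05 are those said to be called, to have risen or to have fallen. No stage has a second library, so the spread in this test is the change between neighbouring stages (MEF with day 0, day 6 with day 7) and not that between cultures, and the single day 4 library is assumed to vary like the others. One of these pairs is unlike in sex-linked genes: Xist was at 46.9 FPKM in WT MEFs and 1.42 on WT day 0, and Ddx3y at 0.0179 and 17.1 FPKM. In KO 1678 genes (12.1%) were called higher and 614 (4.44%) lower, and the counts of every gene list below are to be read against these shares. The median of all genes tested rose by 0.08, and the balance of the calls moved with the scaling: it was 937 higher and 911 lower after scaling each library to the same sum, and 1249 and 1108 after quantile normalization. Of the 9321 genes of the rule, 9248 passed the filter on low values, of which 1611 were called higher and 510 lower. The test compares the same KO libraries that the rule used. Calls among genes of the rule are therefore not independent of it, and their share is raised by the choice. The counts lean on single libraries: without the KO day 7 library 486 genes were called higher and 157 lower, and without the WT day 6 or day 7 library 401 or 403 were called lower. Without all 5 WT libraries the counts were 657 and 187. The genes of the rule that were called comprised 1539 protein-coding genes higher and 459 lower.

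**Figure D1:**
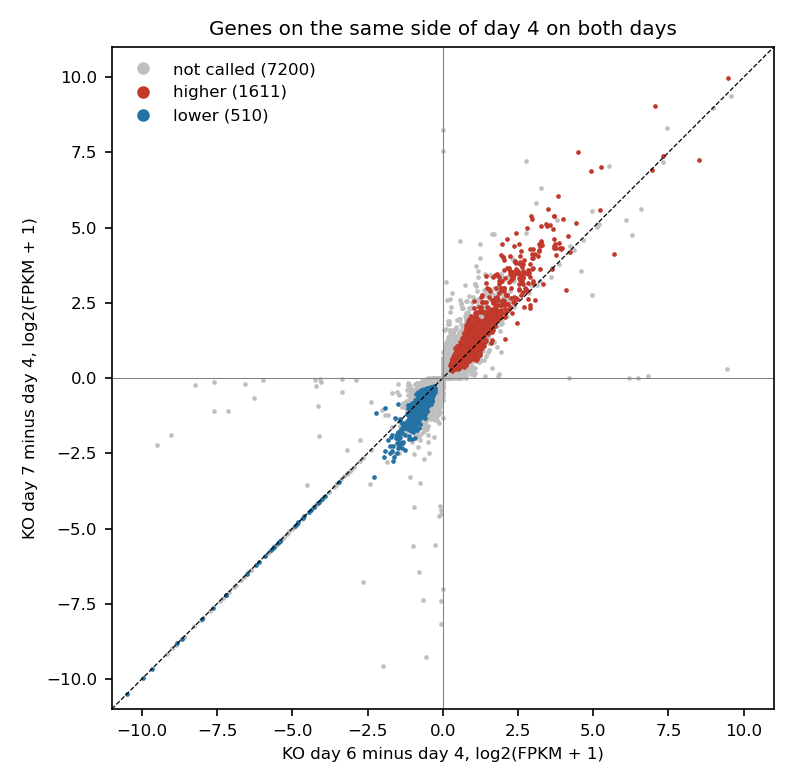
Each point is 1 of the 9321 genes of the rule, with the KO day 6 minus day 4 difference on the horizontal axis and the day 7 minus day 4 difference on the vertical axis, both on the log2(FPKM + 1) scale. The 1611 genes called higher are red, the 510 called lower blue, and the dashed line marks equal differences; the far lower left of that line holds mostly short RNA genes listed at or near 0 on both later days.

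A difference of at least 1 log2 from day 4 on both later days was reached by 635 genes higher (5.84% of 10871) and 234 lower (2.15%). Of the genes past this fold, 555 higher and 117 lower were protein coding. Short RNA classes made up 44 of the higher and 104 of the lower genes and are not described further, other than the cluster above. At the edge of the fold rule, the last gene inside had a smaller difference of 1.002 and the first outside 0.999, and the 5 genes just inside the FPKM minimum lay between 5.001 and 5.009. The median level of the 555 protein-coding genes that were higher was 1.34 in KO MEFs and 2.16 on day 4, then 3.88 on day 6 and 4.48 on day 7, against 3.93 in KO iPSCs, all as log2(FPKM + 1). In WT the same genes had medians of 2.22, 1.504 and 2.05 on days 4, 6 and 7. Of the 555, 499 were higher on day 7 than on day 6, beside 7436 of all 13837 genes tested. The 555 were chosen on values of these same libraries. The 117 protein-coding genes that were lower had medians of 3.02 in KO MEFs, 4.86 on day 4, 3.57 on day 6, 3.32 on day 7 and 1.03 in iPSCs.

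Junction and surface genes of epithelia had the highest median change among the lists with at least 5 genes tested. Of 37 tested, 29 rose and none fell, with a median of 2.93 on the log2 scale against 0.08 for all genes tested, and 30 of the 41 in the table were past the fold. Without the KO day 7 library 18 of 35 were called (median 1.997), and with only the 9 libraries of days 4, 6 and 7 16 of 39. Epcam (GRCm38, chr17:87635979-87651129, plus strand), a homophilic adhesion molecule of epithelial and pluripotent cells, was at 2.25 FPKM on day 4, 68.7 on day 6 and 115 on day 7. Both later libraries were far above the day 4 library, and above the 40.4 FPKM of KO iPSCs (log2 change 4.79 ± 0.45 SE, limma adjusted p = 0.00205). Cldn6 (chr17:23679249-23682446, plus strand), a claudin of embryonic epithelia, went from 0.311 to 49.7 and 168 FPKM (6.14 ± 0.89, adjusted p = 0.00796). Cldn4 (chr5:134945119-134946934, minus strand), another tight junction claudin, went from 0.656 to 49.8 and 194 FPKM (5.91 ± 0.95, adjusted p = 0.0106). Both claudins were higher on day 7 than on day 6, and higher than in KO iPSCs, at 10.7 and 33.3 FPKM. Cdh1, which encodes E-cadherin, was already at 15.1 FPKM on day 4 and reached 57.4 and 115 FPKM (2.35, adjusted p = 0.0221). Ocln, which encodes occludin, went from 0.562 to 10.8 and 20.4 FPKM, and Crb3, a polarity protein, from 2.00 to 39.3 and 50.3 FPKM. Of the keratins of simple epithelia, Krt8 was at 52.4, 312 and 579 FPKM, Krt18 at 0.0673, 23.2 and 193 FPKM, and Krt19 at 5.87, 26.3 and 112 FPKM. All 3 rose (limma adjusted p = 0.0236, 0.0195 and 0.0330), and Krt18 has near-identical copies elsewhere in the genome, so its level is uncertain. In KO MEFs and on KO day 0 Krt18 was at 4.78 and 1.41 FPKM and Krt19 at 17.0 and 17.6 FPKM, above their day 4 levels. Krt8 was at 0.88 and 0.081 FPKM there, below its day 4 level. Members that did not pass the test include Cdh3 (P-cadherin, 5.85, 2.76 and 3.69 FPKM) and Itgb4 (integrin beta 4, 67.7, 80.1 and 105 FPKM).

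**Figure D2:**
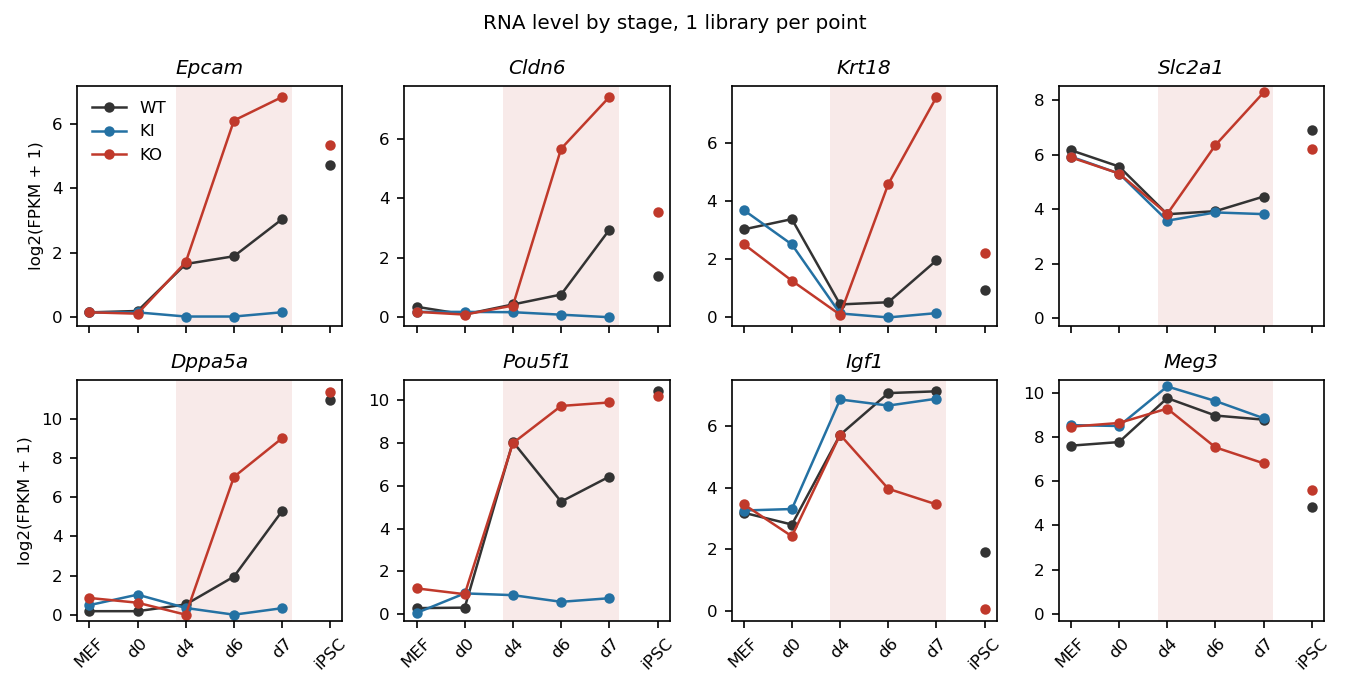
RNA level of 8 genes as log2(FPKM + 1) at each stage, 1 library per point, with WT in black, KI in blue and KO in red and the interval from day 4 to day 7 shaded. Epcam, Cldn6, Krt18, Slc2a1, Dppa5a and Pou5f1 are higher on days 6 and 7 than on day 4 in KO, and Igf1 and Meg3 are lower; KO iPSC and WT iPSC are unconnected points.

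Promoters were to be shown for Cdh1, Epcam, Esrp1 and Cldn4 where the gene was past the fold and its promoter held the E-box CAGGTG. This is the element bound by the mesenchymal repressors Zeb1, Zeb2, Snai1 and Snai2. Cdh1 and Esrp1 had no promoter entry, so the promoters of Epcam and Cldn4 are shown, and holding the E-box was a condition of showing them. They run from 250 bases before to 50 after the RefSeq start (GRCm38.p6), 5′ to 3′ on the gene's strand, with CAGGTG or its reverse complement CACCTG in capitals.
Epcam, chr17:87635729-87636028, plus strand: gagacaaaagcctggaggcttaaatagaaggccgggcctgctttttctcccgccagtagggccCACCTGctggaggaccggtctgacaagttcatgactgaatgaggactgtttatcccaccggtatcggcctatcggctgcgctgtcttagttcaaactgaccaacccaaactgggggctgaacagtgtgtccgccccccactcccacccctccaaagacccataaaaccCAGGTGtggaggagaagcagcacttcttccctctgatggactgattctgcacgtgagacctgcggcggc
Cldn4, chr5:134946885-134947184, minus strand: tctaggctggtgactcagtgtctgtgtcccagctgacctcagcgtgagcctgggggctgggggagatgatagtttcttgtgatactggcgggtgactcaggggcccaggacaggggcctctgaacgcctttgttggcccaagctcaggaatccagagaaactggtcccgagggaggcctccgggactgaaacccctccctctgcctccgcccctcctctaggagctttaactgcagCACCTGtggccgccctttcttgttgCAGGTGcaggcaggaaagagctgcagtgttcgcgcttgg
Each window held 2 matches. The E-box occurs on either strand in 22.6% of the 27025 genes with a promoter in the table (6098 genes), and a match is a description only. Of the 41 list genes 22 had a promoter entry, under 80%, so a share over the list is void and none is given. Of the RNAs of these repressors, Zeb1 fell (20.5, 14.2 and 11.5 FPKM, log2 change -0.64, adjusted p = 0.0155), while Zeb2 (12.2, 8.90 and 6.26 FPKM), Snai1 (35.2, 37.5 and 31.8 FPKM) and Snai2 (13.0, 9.76 and 6.67 FPKM) did not pass the test. The call for Zeb1 was lost without the 5 WT libraries, and a part of these RNAs in the epithelial rise was not tested.

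Transcription factors and splicing regulators of epithelia were low on day 4. Of 16 in the table only 8 passed the filter, of which 5 rose and none fell, and 9 of the 16 were past the fold. Low genes pass this filter largely through the KO libraries in which they are high, so the count is conditioned on the outcome: with no filter 10 of 16 were called, and without the KO day 7 library 4 passed and none were called (median 0.66). Ovol1, a repressor of mesenchymal genes, was at 0.812, 4.97 and 8.40 FPKM, and Tfap2c, a factor of trophoblast and germ cells too, at 0.204, 6.09 and 16.6 FPKM. Esrp2, an epithelial splicing factor, was at 2.14, 14.2 and 24.2 FPKM. Esrp1, Grhl1, Grhl2 and Grhl3 did not reach the filter over the 15 libraries, and their day 7 levels were 8.97, 5.29, 8.39 and 7.88 FPKM, each from under 1.3 FPKM on day 4. Ehf, by contrast, was already at 22.7 FPKM on day 4 and at 32.5 and 27.7 FPKM later, and did not pass the test.

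Of 15 genes of the keratinocyte and the cornified layer tested, 9 rose and 1 fell, with a median change of 1.89. Without the KO day 7 library 5 were called higher, with 9 libraries 4, and with no filter 11 of 28 (median 1.04). Low genes pass the filter largely through the libraries in which they are high, so the filtered count and median are conditioned on the outcome. Sfn, which encodes the epithelial 14-3-3 protein stratifin, was at 9.82, 191 and 282 FPKM (log2 change 4.43 ± 0.45, adjusted p = 0.00289). Krt17, a keratin of stressed and embryonic epidermis, was at 10.2, 145 and 231 FPKM, and Klk10, a secreted protease, at 43.3, 256 and 382 FPKM. Krt14, a keratin of basal epidermis, rose less, from 51.8 to 157 and 154 FPKM. Its partner Krt5 stayed below 1 FPKM in all 3 libraries. Sprr3, a cornified envelope protein, fell, from 18.9 to 8.74 and 7.79 FPKM (adjusted p = 0.0448), a call lost after scaling to the same sum, with 9 libraries, without the KO day 7 library, without the 5 WT libraries and with no filter. Krt13 (36.1, 55.2 and 59.6 FPKM) and Lgals7 (120, 260 and 217 FPKM) were well above the MEF level on day 4 and did not pass the test.

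Of 30 transcription and chromatin factors of pluripotency 22 passed the filter, of which 15 rose and none fell (median 1.71). With no filter 17 of 30 were called (median 1.48), with 9 libraries 6 of 23, without the 5 WT libraries 8 of 22, and without the KO day 7 library 4 of 13 (median 0.97). Here too the filtered count and median are conditioned on the outcome. Nanog, a core pluripotency factor, was at 0.580 FPKM on day 4, 5.49 on day 6 and 10.7 on day 7, while KO iPSCs had 156 FPKM. Sall4 was at 1.16, 12.9 and 24.3 FPKM against 72.3 in iPSCs, and Lin28a, an RNA-binding protein that blocks let-7 maturation, at 0.832, 6.63 and 7.95 FPKM against 44.6. Utf1 was at 0.0662, 6.38 and 32.9 FPKM against 260. For each of these the order was day 4, day 6, day 7, iPSC. Esrrb, a nuclear receptor of the naive network, was at 0.0151, 1.66 and 5.84 FPKM against 165 in iPSCs, and did not reach the filter. Dnmt3b, a de novo DNA methyltransferase, rose (0.917, 4.65 and 13.3 FPKM), and Dnmt3a did not pass the test (9.93, 7.64 and 9.53 FPKM).

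Of the surface, signalling and other genes of pluripotent cells, 12 of 21 tested rose and none fell (median 2.11). With no filter 17 of 30 were called (median 1.72), without the KO day 7 library 5 of 17 and with 9 libraries 3 of 22. The same limit of the filter holds for this list. Dppa5a, an RNA-binding protein of embryonic stem cells, was listed at 0 on day 4 and at 131 and 521 FPKM later, with 2721 FPKM in iPSCs (log2 change 8.04 ± 1.25, adjusted p = 0.00995); near-identical copies make its level uncertain. Tdgf1, the Nodal co-receptor Cripto, was at 0.116, 13.6 and 45.4 FPKM, and Lefty2, a Nodal antagonist, at 0.106, 13.3 and 45.6 FPKM. Fgf4 was at 0.588, 8.93 and 15.8 FPKM. Icam1 (17.7, 14.5 and 12.4 FPKM) and Bmp4 (14.9, 7.13 and 8.32 FPKM) did not pass the test.

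The 4 reprogramming factors were well above their MEF levels in all 3 libraries; FPKM adds RNA of the cassette and of the endogenous genes, which cannot be told apart here. Pou5f1 was at 255, 852 and 954 FPKM and rose (log2 change 1.82, adjusted p = 0.0440). Sox2 (29.1, 31.5 and 37.9 FPKM), Klf4 (116, 111 and 117 FPKM) and Myc (98.5, 113 and 120 FPKM) did not pass the test, and their libraries lay close together. The call for Pou5f1 was lost under either rescaling, with 9 libraries, with no filter, and without the KO day 7 or the 5 WT libraries.

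Genes of the germline were few at these levels. The list has 21 genes, of which 4 passed the filter and 3 rose. Low genes pass this filter largely through the KO libraries in which they are high, so the count is conditioned on the outcome. With no filter 4 of 20 were called, with a median change of 0.06 against 3.15 with the filter. The 3 that rose were Tex19.1 (0.764, 11.8 and 18.7 FPKM), Piwil2, which acts in the piRNA pathway (1.75, 19.6 and 27.5 FPKM), and Rhox5 (0.557, 7.06 and 31.2 FPKM). Piwil2 was higher on day 7 than in iPSCs (5.202 FPKM). Ddx4, Dazl and Mael, which mark established germ cells, were below 0.5 FPKM in all 3 libraries. Of 8 trophoblast markers tested, Elf5 (0.175, 6.60 and 17.0 FPKM) and Tead4 (10.3, 37.2 and 46.2 FPKM) rose, while Cdx2 stayed below 1 FPKM. The same limit holds for this list: with no filter 2 of 18 markers were called higher, beside 12.1% of all genes in the main fit.

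Day 7 was not simply a step towards the iPSC level. A difference of 1 log2 between the KO day 7 and KO iPSC libraries was found for 20.8% of genes above and 13.9% below. Of 38 epithelial junction genes at 5 FPKM in either library, 29 were above their iPSC level and none below it, and all 16 keratinocyte genes were above. Ly6g6c, a small surface protein gene that overlaps its neighbours, was at 15.8, 635 and 812 FPKM against 5.59 in iPSCs. Among other named genes, Sdcbp2, a syntenin relative, was at 0.751, 25.4 and 33.4 FPKM against 2.34 in iPSCs, and Dkkl1 at 3.93, 72.2 and 97.9 FPKM against 5.37. Dok2, an adaptor protein, was at 0.648, 24.7 and 32.2 FPKM against 8.26, and Fam25c at 3.58, 71.4 and 178 FPKM against 114. All 4 were called higher on days 6 and 7 than on day 4. For Fam25c day 7 was less than 1 log2 above KO iPSCs (0.63), and WT iPSCs had 26.2 FPKM of Dok2 and 157 of Fam25c. Dppa5a, also a named gene, lay below KO iPSCs on day 7 (-2.38). Of 29 pluripotency transcription and chromatin factors, none were above the iPSC level by this measure and 27 below.

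**Figure D3:**
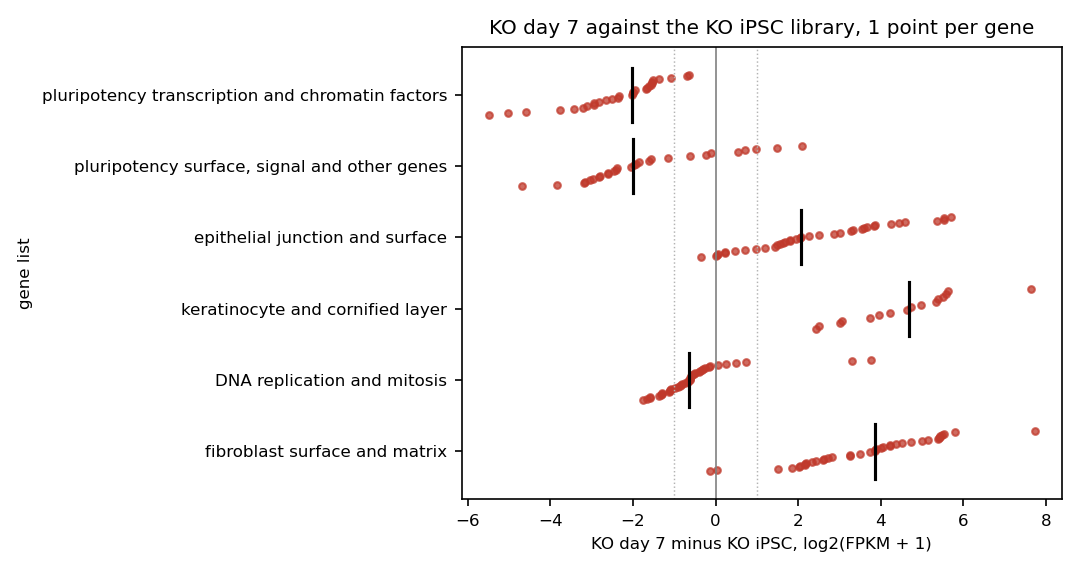
Difference between the KO day 7 and the KO iPSC library for each gene of 6 lists that reached 5 FPKM in either, on the log2(FPKM + 1) scale, with the list median as a black bar and dotted lines at a difference of 1 log2 each way. Epithelial, keratinocyte and fibroblast genes lie mostly to the right of 0 and pluripotency factors to the left.

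Of 40 genes of DNA replication and mitosis tested, 20 rose and none fell, with a median change of 0.93. Mcm2, a subunit of the replicative helicase, was at 15.1, 31.7 and 39.7 FPKM, and Cdk1, the mitotic kinase, at 59.2, 138 and 140 FPKM. Ccnb1, its cyclin partner, was at 19.3, 52.9 and 60.6 FPKM. The D-type cyclins did not pass the test (Ccnd1 279, 326 and 307 FPKM, Ccnd2 151, 145 and 103 FPKM). The count depended on the fit: 11 of 40 were called after scaling to the same sum, and 1 of 40 without the KO day 7 library or without the 5 WT libraries. Of 10 genes of polycomb repressive complex 2, which methylates histone H3, 5 rose, among them Suz12 (12.8, 30.0 and 44.3 FPKM) and Ezh2 (11.8, 19.13 and 20.6 FPKM); 3 of 10 were called under either rescaling and 1 without the KO day 7 library.

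Of 24 glycolysis and hypoxia genes 7 rose and none fell (median 0.91). Slc2a1, the basal glucose transporter, was at 13.2 FPKM on day 4, 81.1 on day 6 and 313 on day 7 (log2 change 3.50, adjusted p = 0.0212). Its day 7 level was above that in MEFs (59.1 FPKM) and in iPSCs (73.5 FPKM). For the list, day 4 was a low point. The 24 genes summed to 3746 FPKM in KO MEFs and 3045 on KO day 0, then to 1808, 2892 and 4441 FPKM on days 4, 6 and 7. Slc2a3, a glucose transporter of pluripotent cells, was at 4.77, 63.7 and 280 FPKM. Hk2 was at 10.1, 18.6 and 35.6 FPKM, Eno1 at 231, 462 and 566 FPKM and Pkm at 399, 679 and 999 FPKM, all 3 called higher. Ldha (262, 360 and 517 FPKM), Vegfa (21.6, 17.3 and 23.8 FPKM) and Car9 (1.38, 1.15 and 0.903 FPKM) did not pass the test. Of 27 subunits of oxidative phosphorylation 9 rose (median 0.42), and the count was 4 after quantile normalization and 3 after scaling to the same sum. Either rescaling called 4 of the 24 glycolysis genes. None were called without the 5 WT libraries, and 2 without the KO day 7 library, where no oxidative phosphorylation gene was called.

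On the other side, matrix and surface genes of fibroblasts lay below their day 4 level. Of 40 tested 8 fell and none rose, with a median of -0.85, and the count was 11 after scaling to the same sum and 14 after quantile normalization. Fbn1, a microfibril protein, was at 255, 155 and 134 FPKM, Postn, a matrix protein, at 558, 277 and 180 FPKM, and Cdh11, a mesenchymal cadherin, at 162, 92.1 and 62.4 FPKM; all 3 fell. Col1a1 (3257, 2037 and 921 FPKM) and Dcn (1321, 857 and 591 FPKM) had the same order of libraries and did not pass the test. Vim, an intermediate filament of mesenchyme, was at 1183, 1079 and 936 FPKM and Thy1 at 187, 173 and 157 FPKM, neither of which passed. On day 7 37 of 39 list genes were still above their iPSC level by 1 log2. Without the KO day 7 library 3 of 40 were called, and without the 5 WT libraries 1 of 40. Of 17 mesenchymal transcription factors, Zeb1, Prrx1, Tbx15 and Osr1 fell and none rose. In this list 1 gene was called lower without the KO day 7 library, 1 with 9 libraries and none without the 5 WT libraries. Twist1 was at 57.8, 49.1 and 36.8 FPKM and did not pass.

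The 12 named genes with the largest falls included signals and imprinted genes. Igf1, a growth factor, was at 51.3, 14.6 and 9.96 FPKM (log2 change -2.001 ± 0.40, adjusted p = 0.0191). Reg1, a secreted lectin, was at 27.96, 4.88 and 1.97 FPKM (-2.79 ± 0.35, adjusted p = 0.00564), after 0 in KO MEFs and on day 0. Ptn, the growth factor pleiotrophin, was at 224, 62.8 and 52.8 FPKM. Fat4, an atypical cadherin, was at 9.40, 2.57 and 1.64 FPKM. Kera, a corneal and tendon proteoglycan, was at 23.1, 6.59 and 3.99 FPKM, also after 0 in MEFs. The other named genes that fell were Megf6 (12.3, 2.44 and 1.17 FPKM), Fam65c (15.9, 4.12 and 3.37 FPKM), Pm20d1 (9.30, 2.18 and 1.77 FPKM), Ldb2 (8.15, 2.16 and 1.07 FPKM) and Hbb-y (130, 44.4 and 22.6 FPKM), a globin gene with related copies. Meg3 (chr12:109541001-109571726, plus strand), the maternally expressed noncoding RNA of the Dlk1 locus, was at 624, 184 and 111 FPKM (-2.12 ± 0.35, adjusted p = 0.0119). Plagl1, an imprinted zinc finger gene, was at 109, 33.1 and 19.3 FPKM (-2.06 ± 0.40, adjusted p = 0.0183). Not all of these falls were particular to KO. Kera was called lower in KI too, at 26.2, 3.28 and 3.71 FPKM (log2 change -2.60). The difference between the KO and WT changes did not pass the test for Ptn and Meg3, and Hbb-y fell further in WT (98.3, 1.91 and 2.51 FPKM). For the other named falls the KO change was called lower than the WT change. Against KI, the KO change was called lower only for Fam65c, Pm20d1 and Fat4 among the named falls. Ldb2 went from 12.3 to 3.60 and 3.60 FPKM in KI (log2 change -1.53, not called), and Reg1 from 354 to 114 and 142 FPKM (-1.47, not called). Of 25 imprinted genes tested 5 fell and 2 rose (median -0.82). Without the KO day 7 library or without the 5 WT libraries 2 fell and 1 rose, and after quantile normalization 8 fell. The 2 that rose were Phlda2, a brake on placental growth, at 0.741, 22.8 and 33.6 FPKM, and Snrpn at 11.6, 18.6 and 24.2 FPKM. H19 (2255, 760 and 878 FPKM) and Igf2 (1219, 544 and 459 FPKM) did not pass the test. Lgr5, an R-spondin receptor, fell from 30.2 to 12.2 and 4.997 FPKM, and Wnt5a from 50.1 to 29.8 and 26.8 FPKM, while Wnt7a rose from 3.04 to 7.62 and 7.46 FPKM.

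Of 10 published targets of miR-203 tested, 2 rose and none fell, with a median of -0.17 against 0.08 for all genes tested; the share over all genes was 12.1% higher, and without the KO day 7 library none of 9 were called. Lasp1, an actin-binding protein, was at 74.4, 126 and 128 FPKM, and the other was Dnmt3b. Trp63 was at 0.937, 1.61 and 1.02 FPKM and did not reach the filter.

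The same interval was compared between genotypes with the same fit. Past the fold of 1 log2 on both later days lay 5.06% of genes higher and 11% lower in WT, and 0.778% and 2.31% in KI. In WT 1543 genes (11.2%) were called higher and 3257 (23.5%) lower from day 4 to days 6 and 7, and in KI 6 (0.0434%) and 51 (0.369%). The change in KO exceeded that in WT for 3704 genes (26.8%) and fell short of it for 1609 (11.6%). This balance moved with the scaling: it was 2528 and 2490 after scaling to the same sum, and 2733 and 2618 after quantile normalization. The sum of FPKM in WT was 636633, 544692 and 563671 on days 4, 6 and 7. Against KI the change in KO was larger for 583 genes (4.21%) and smaller for 120 (0.867%). The counts against KI moved most with single libraries, from 128 higher and 56 lower without the KI day 7 library to 942 and 285 without the KO day 6 library. Without the KO day 7 library they were 206 and 54, without the WT MEF library 290 and 70, and without the WT day 0 library 286 and 69. The higher calls numbered 378 without the KI MEF and 360 without the KI day 0 library, and the lower calls 63 without the WT day 6 and 65 without the WT day 7 library. Total RNA of the reprogramming factors differed between these cultures: Pou5f1 was at 266, 37.4 and 85.3 FPKM on days 4, 6 and 7 in WT, and at 0.851, 0.491 and 0.675 FPKM in KI. Sox2 in WT was at 19.005, 2.26 and 3.63 FPKM. The part of this in the differences was not tested.

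For the epithelial junction list the difference between the KO and the WT change was called for 33 of 37 genes, all higher in KO, and that between KO and KI for 13. The list medians were 2.93 in KO, -0.50 in WT and -0.05 in KI. In WT Krt8 went from 99.5 FPKM on day 4 to 10.9 and 28.3 FPKM, so that WT was above KO on day 4 and below it on both later days. Epcam in WT was at 2.12, 2.69 and 7.24 FPKM, and in KI it was at 0.0970 FPKM or below. For the keratinocyte list the KO and WT changes differed for 12 of 15 genes (WT median -1.84), and for the replication list for 28 of 40 (WT median -0.78), all higher in KO. Of the fibroblast genes 19 of 40 were called lower in KO than in WT (WT median 0.46) and 3 lower than in KI. The p53 and senescence list had a KO median of -0.01, with 2 of 18 genes called higher and 1 lower, near the 12.1% and 4.44% of all genes, and none higher under either rescaling. The acute-phase, complement and chemokine list had a KO median of 0.08, with 2 of 35 called higher and 3 lower, and a WT median of 1.07.

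**Figure D4:**
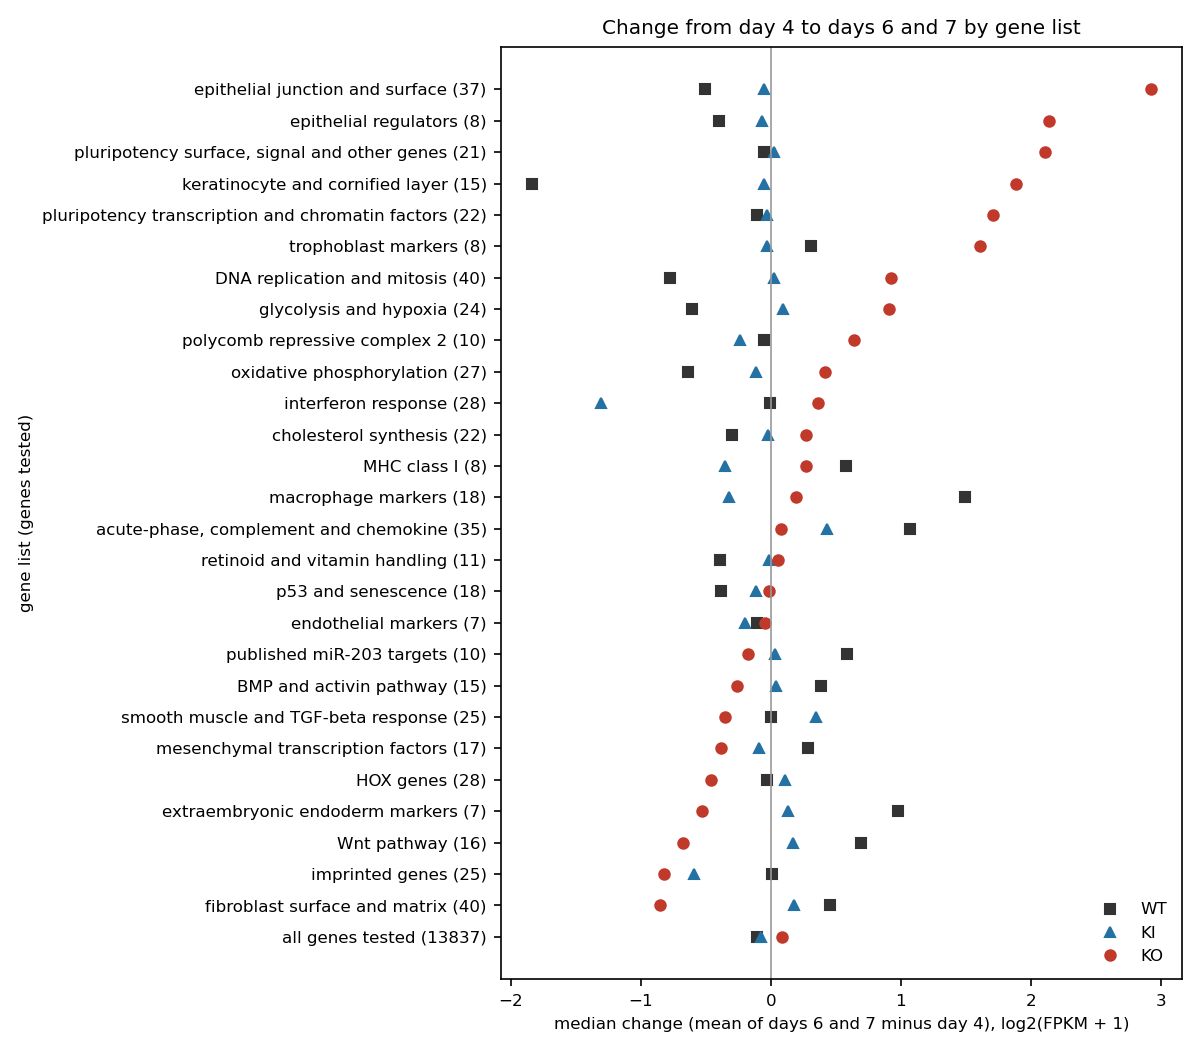
Median change from day 4 to the mean of days 6 and 7 for each gene list with at least 5 genes tested, in KO (red circles), WT (black squares) and KI (blue triangles), on the log2(FPKM + 1) scale, with the number of genes tested in brackets. Epithelial, keratinocyte and pluripotency lists lie farthest to the right in KO and fibroblast genes farthest to the left, with all genes tested at the bottom. Medians cover only genes past the filter, which low genes pass largely through the libraries in which they are high.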

How the data were processed

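The authors deposited 1 table of FPKM values for all 17 libraries. The build was GRCm38 (mm10), and Cufflinks 2.2.1, TopHat2 2.0.10, SAMtools 0.1.16, Bowtie 1.0.0 and FastQC are named, per the submitters' processing notes, without roles or settings. Libraries were stranded and polyadenylated, per the labels' protocols. FPKM divides by length and mapped reads, so a few abundant genes lower all others, and depth is unknown, so no interval for counting error is given.

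Of 38756 lines, 41 that repeated 1 of 19 identifiers were summed, which left 38734 genes; 37428 (96.6%) matched GENCODE M21. Values were log2(FPKM + 1), where fold changes of low genes are understated. limma 3.58.1 in R 4.3.3 (empirical Bayes with a trend, 2-sided) was fitted to the 15 libraries before iPSC, as 9 means of genotype by early (MEF, day 0), day 4 and late (days 6 and 7), for the 13837 genes whose mean FPKM reached 1. The script was tested on simulated data.

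Named genes are the 12 largest changes each way, ranked by the smaller of the 2 later differences, among called genes of the rule, and the 5 largest called differences each way between genotypes; predicted genes, short RNAs and pseudogenes were counted, not named. List members are named as examples. A few genes, 1 of the 12 largest increases among them, are not reported here. Members and the 31 gene lists were chosen with earlier results of these data known, so no list is independent evidence of its direction. Lists are given by counts and medians, to be read against those of all genes tested, and no set test was run. Alternatives were other pseudocounts, filters, scalings and sets of libraries, and each library before iPSC except KO day 4 was left out in turn. A change from day 4 cannot be fitted without the day 4 library of its genotype, so the ranges below do not cover those libraries.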

Additional observations from a re-analysis of the deposited data

Results flagged for a closer look

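The change from day 4 to days 6 and 7 differed between KO and another genotype, by limma's test of the difference itself, for the genes below; values are differences of log2 changes, and no cause was tested. Each rests on 1 day 4 library per genotype.

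Against WT the KO change was larger for Lypd2, a small surface protein gene, by 5.67. Lypd2 was nearly level in KO (69.8, 79.0 and 75.7 FPKM) while in WT it went from 97.2 to 1.12 and 1.14 FPKM. The difference was 5.42 for Krt8, 5.35 for Wfdc2, 5.25 for Fgfbp1 and 5.22 for Krt19, and in WT all 4 were lower on both later days than on day 4. In the other direction it was -3.68 for Mmp9, a matrix protease, which went from 3.41 to 72.3 and 162 FPKM in WT and from 2.30 to 4.89 and 5.95 FPKM in KO. It was -3.61 for Edil3, -3.50 for Steap4, -3.49 for Adamts15 and -3.47 for Reg3g. Reg3g, a secreted lectin, was at 185, 81.4 and 54.1 FPKM in KO and at 453, 1423 and 2352 FPKM in WT.

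Against KI the difference was 8.22 for Dppa5a, 6.27 for Cldn6, 5.91 for Ly6g6c, 5.51 for Dok2 and 4.76 for Fam25c. It was -3.83 for Actg2, a smooth muscle actin, which went from 5.17 to 33.0 and 32.4 FPKM in KI and from 29.7 to 15.6 and 7.32 FPKM in KO. It was -2.60 for Itga11, a collagen receptor subunit, -2.54 for Pcsk5, -2.38 for Myl9 and -2.0 for Adamts1.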

How the results depend on the processing

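No paired analysis was possible because no genotype and stage has a second library, so there is no replicate number to pair. In KO 943 genes were called higher with only the 9 libraries of days 4, 6 and 7, 937 after scaling to the same sum and 657 without the 5 WT libraries; 1108 were called lower after quantile normalization and 187 without the WT libraries. With the early libraries in place of day 4, which asks about the whole course since MEF and day 0 and was added after seeing the data, 4095 were higher and 1832 lower. Leaving out 1 library at a time, KO day 4 excepted, gave 486 to 1691 higher and 157 to 751 lower. Against WT, 2618 genes were called lower after quantile normalization and 2490 after scaling to the same sum, with 3040 to 3754 higher and 1172 to 1675 lower when 1 library was left out. The early base left the KO minus WT counts at 4137 and 1775, of which 2974 and 965 were also called with day 4.

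Against KI the counts were less stable. Higher calls numbered 104 with 9 libraries, 4877 with the early base, 339 with a filter at 5 FPKM, 962 with no filter, 382 with a pseudocount of 0.1, 257 after quantile normalization, 205 after scaling to the same sum and 173 without the WT libraries, and 128 to 942 with 1 library left out. Lower calls numbered 54, 1631, 66, 311 and 77 under the first 5 of these, 40 without the WT libraries, and 54 to 285 with 1 library left out.

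Genes past the fold numbered 313 higher with a pseudocount of 5, 200 higher and 104 lower at a difference of 2 log2, and 117 lower among protein-coding genes. With 1 later library left out, the rule asks for a difference on the remaining later day only and is looser. Genes past the fold were then 657 to 1223 higher and 309 to 607 lower. Genes of the rule were then 6187 to 6710 higher and 4021 to 4223 lower. The rule split 4597 to 4589 after scaling to the same sum and 4634 to 4603 after quantile normalization. All 24 named genes of the KO change were called under both rescalings. With 9 libraries 8 of the 24 lost the call, without the KO day 7 library 5 and without the WT libraries 6, and none reversed. The 5 WT libraries left out, the early base and the protein-coding subset were chosen after seeing the data, and the cause of these shifts was not tested. Depth is unknown, so the error of levels near 0 cannot be given.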

Other observations

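Noncoding and immune genes gave further values in the KO interval. Dnm3os, the host transcript of Mir199a-2 and Mir214, was at 21.7, 6.95 and 5.11 FPKM on days 4, 6 and 7 and fell; it was named after its values were seen. Of 28 HOX genes tested 3 fell and none rose (median -0.46): Hoxa3 (6.41, 1.66 and 1.12 FPKM), Hoxa5 (4.02, 2.22 and 1.72 FPKM) and Hoxc6 (14.7, 9.27 and 5.87 FPKM). Of 8 genes of MHC class I, H2-K1 (27.4, 53.1 and 66.2 FPKM) and H2-Q4 (0.840, 2.89 and 2.80 FPKM) rose, and these genes share near-identical copies. Among the 35 acute-phase, complement and chemokine genes tested, Saa1 (0.245, 4.86 and 12.7 FPKM) and Cxcl16 (6.98, 14.8 and 15.6 FPKM) rose, and Serpina3n (414, 209 and 122 FPKM) and Steap4 (115, 64.2 and 41.1 FPKM) fell.

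Of 7 endothelial markers tested, Tie1 (0.138, 5.15 and 12.5 FPKM) and Pecam1 (0.101, 2.98 and 10.4 FPKM), which pluripotent cells also express, rose, and Tek, the receptor related to Tie1, fell (19.5, 11.96 and 8.80 FPKM). Cd68, the macrophage marker that rose, was at 3.23, 13.2 and 44.6 FPKM while C1qa, C1qb and C1qc stayed below 1.3 FPKM. Peg10, an imprinted gene with a role in placenta, was at 9.18 and 9.93 FPKM on days 4 and 6 and at 92.1 FPKM on day 7, and did not pass the test. Without the KO day 7 library the calls were 1 of 28 HOX genes, 1 of the endothelial markers and none of the MHC class I, acute-phase, macrophage, interferon and cholesterol lists.

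The counts that follow stand against 12.1% of all genes tested called higher and 4.44% lower, with a median of 0.08. Of 25 genes of smooth muscle and the TGF-beta response 1 rose and 2 fell (median -0.35), of 28 interferon response genes 2 rose and 1 fell (0.36), of 22 genes of cholesterol synthesis 3 rose (0.27) and of 16 Wnt pathway genes 1 rose and 2 fell (-0.68). The cholesterol count was 1 under either rescaling. Of 7 extraembryonic endoderm markers 2 fell (-0.53), Dab2 (45.6, 20.8 and 15.7 FPKM) and Lamb1 (147, 84.9 and 69.7 FPKM). By limma no gene passed the adjusted test among 11 of retinoid and vitamin handling, 15 of the BMP and activin pathway, 3 neural markers and the 1 primed and germ layer gene tested. At an unadjusted p under 0.05 the counts were 1, 3, 0 and 1.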
